A study of Columba livia with 12 samples.

Results

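miR-194 and miR-215 are microRNAs (miRNAs) of liver and intestinal epithelium, and they were followed here in the developing liver of the pigeon (Columba livia). The members are the mature names of the pigeon set that read miR-194 or miR-215, with any arm. There were 3 of them among 1039 names in the count table: cli-miR-215-5p, cli-miR-194-5p and cli-miR-194-3p. The suffixes 5p and 3p name the arms of the hairpin from which a mature strand is cut. Of the 3 names, 2 had enough counts to be tested, miR-215-5p and miR-194-5p, and 345 of all names were tested. The prefix cli- of pigeon names is left out below.

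The livers came from white king pigeons, a breed of the domestic pigeon, with no treatment other than growth. Small RNA was sequenced from 3 pigeons in each of 4 age groups, called 1d (1 day of age), 14d, 28d (14 and 28 days) and 2y (2 years). The youngest 3 groups were squabs of mixed sex and the oldest were parent birds of both sexes, and the sex of each sequenced bird is not given. For 1d replicates 2 and 3 the stage label is 1d but the description gives an age of 2 and 3 days, so the members' tests between ages that use 1d are also given with 1d replicate 1 alone.

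In mammals miR-215 and a copy of miR-194 are cut from the same primary transcript. Their locus lies within an intron of IARS2, the gene of a mitochondrial isoleucyl-tRNA synthetase. Transcription of the pair in liver and gut is driven by hepatocyte nuclear factors, and in human cells it is also raised by p53. miR-194 rises as mammalian intestinal epithelial cells differentiate and targets the mRNA of N-cadherin in liver cells. miR-215 is known in human cells for holding back the cell cycle and for targeting mRNAs of nucleotide synthesis.

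Total counts lay between 3100273 and 9393075 per library. Levels are counts per 1000000 (CPM) after TMM scaling, which corrects library sizes for composition. The TMM factors followed age, from 1.61 to 1.96 at 1d and 1.30 to 1.56 at 14d down to 0.512 to 0.953 at 28d and 0.568 to 0.730 at 2y, so changes from the younger to the older ages are larger on this scale than as shares of all counts. A list called liver-enriched here (miR-148a, miR-101 and miR-455) held 6.02 to 26.4% of the counts of a library. None of its 6 names was at 0 in any library. That label was not tested in these data, and the list is not a measure of hepatocytes. In whole liver, fewer cells of one type and less of an RNA per cell cannot be told apart.

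miR-215-5p, the more abundant member, was low at 1d and 14d and higher at 28d and in the adults, of which replicate 2 was closer to the 14d birds than to the other adults. At 1d the 3 pigeons had 36.2, 31.6 and 18.2 CPM in replicates 1, 2 and 3, from 256, 238 and 131 counts. At 14d they had 48.1, 51.3 and 48.0 CPM, from 235, 457 and 442 counts. At 28d they had 525, 373 and 448 CPM, from 4524, 1132 and 709 counts. On this scale the 14d pigeons all lay above the 1d pigeons, and every 28d pigeon lay above every younger one. Over the raw total the 1d and 14d pigeons overlapped, as 1d replicate 1 (70.7 CPM) lay above 14d replicates 1 and 3 (62.8 and 62.4). At 2y the pigeons had 3327, 82.1 and 869 CPM, from 18010, 533 and 4633 counts. The adults enclosed the whole 28d range, with replicates 1 and 3 above it and replicate 2 below it, although above every 1d and 14d pigeon. From the youngest to the oldest age the means were 28.7 ± 9.33, 49.2 ± 1.88, 448 ± 76.0 and 1426 ± 1693 CPM (SD, n = 3 each). By mean level among all names, miR-215-5p had rank 142 in the youngest birds, 121 at 14d, 68 at 28d and 47 in the adults. The adult rank was 62, at a mean of 475 CPM, without 2y replicate 1 (chosen after seeing the data), and in the single adults it was 30, 99 and 52 in replicates 1, 2 and 3.

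**Figure D1:**
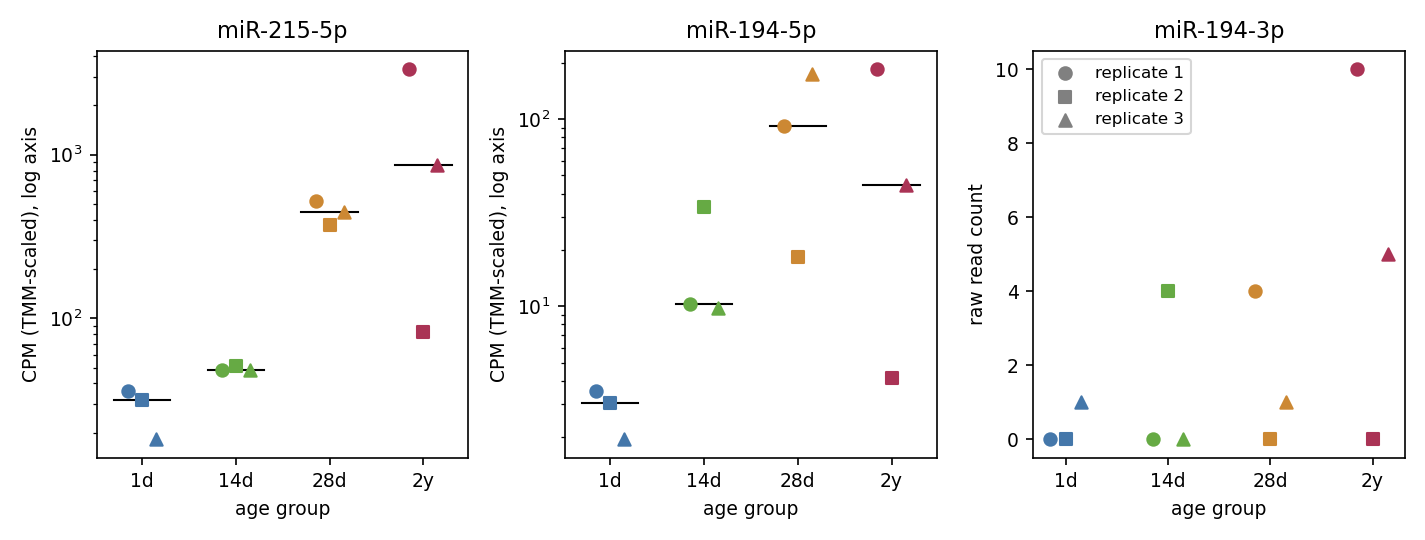
Levels of the 3 members by age group. The left and middle panels show TMM-scaled CPM of miR-215-5p and miR-194-5p on log axes with 1 point per pigeon and the median as a line, and the right panel shows raw counts of miR-194-3p, which reached 10 at most. The adult points of the 5p arms lie farthest apart, from 82.1 to 3327 CPM for miR-215-5p.

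miR-194-5p was less abundant than miR-215-5p in every library and also lay lowest at 1d. At 1d it had 3.53, 3.05 and 1.95 CPM, from 25, 23 and 14 counts. At 14d it had 10.2, 34.0 and 9.78 CPM, from 50, 303 and 90 counts. At 28d it had 91.8, 18.4 and 174 CPM, from 792, 56 and 276 counts. All 1d pigeons lay below all 14d and 28d pigeons, while 14d and 28d overlapped, because 28d replicate 2 was below 14d replicate 2. At 2y miR-194-5p had 185, 4.16 and 44.4 CPM, from 1000, 27 and 237 counts. Adult replicate 2 thus lay below every 14d and 28d pigeon and just above the highest 1d pigeon. In order of age the means were 2.84 ± 0.813, 18.0 ± 13.9, 94.9 ± 78.1 and 77.8 ± 94.8 CPM (SD, n = 3 each), and the ranks among all names were 239, 171, 109 and 105. The adult rank was 147 without 2y replicate 1, and 81, 205 and 121 in the single adults.

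miR-194-3p, the minor arm of the miR-194 hairpin, was close to the limit of detection. It had 25 counts in all 12 libraries together against 2893 of the 5p arm, and 0 counts in 6 libraries. A count of 0 in these allows up to 3 counts, or 0.326 to 0.987 CPM. The highest counts of the minor arm, 10 and 5, came from 2y replicates 1 and 3, the adults with the higher miR-194-5p, and 2y replicate 2 had 0. Pooled over the libraries of an age, the 3p arm made up 1.59% of miR-194 counts at 1d (95% Wilson interval 0.281 to 8.46%), 0.895% at 14d (0.349 to 2.28%), 0.443% at 28d (0.189 to 1.03%) and 1.17% at 2y (0.712 to 1.93%). These intervals cover counting error only, not the spread between birds, and they overlap. A difference between ages in the use of the arms was not tested.

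Over the 4 ages together, both tested members differed in the quasi-likelihood F test of edgeR, with p adjusted over all 345 miRNAs by Benjamini and Hochberg's method, miR-215-5p with an adjusted p = 0.00219 and miR-194-5p with an adjusted p = 0.0293. This test called 45.2% of all tested miRNAs. The call of miR-215-5p remained when any 1 library was left out (adjusted p 0.000151 to 0.00908). The call of miR-194-5p ended without 1d replicate 1, 2 or 3, 14d replicate 1 or 3, 28d replicate 1 or 3, or 2y replicate 3 (adjusted p 0.0516 to 0.104). With the total count in place of TMM, miR-215-5p still passed (adjusted p = 0.0112) and miR-194-5p did not (adjusted p = 0.119). With 1d replicate 1 as the only 1d library, miR-215-5p passed (adjusted p = 0.0390) and miR-194-5p did not (adjusted p = 0.270).

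The members' share of all counts, which needs no scaling factor, gave a less firm picture. Summed, the 3 names took 0.00554 ± 0.00225% of counts in 1d birds, 0.00950 ± 0.00336% in 14d birds, 0.0369 ± 0.0198% in 28d birds and 0.103 ± 0.129% in adults (SD, n = 3 each). An exact permutation test of the F statistic over the 15400 partitions of the libraries did not pass (p = 0.168), nor did it on the log2 of the share (p = 0.0883), an alternative chosen after seeing the data. Without 2y replicate 2 the share passed (exact p = 0.0184). It did not pass when 1d replicate 1 was the only 1d library (exact p = 0.389), an alternative also added after seeing the data.

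As shares of all counts, lists of markers of other cell types also differed between ages, and these shares were not tested. The list of gut and other epithelium (miR-200a, miR-200b, miR-429, miR-31, miR-375 and miR-205) took between 0.123 and 0.143% of counts in 1d birds, 0.205 and 0.502% in 14d birds, 0.0552 and 0.107% in 28d birds and 0.0573 and 0.0728% in adults. It was highest in the 14d birds, unlike the members. The list of mesenchymal miRNAs (miR-199, miR-214 and miR-143 with miR-145) took between 7.78 and 9.47% in 1d birds, 3.85 and 5.52% in 14d birds, 7.58 and 13.2% in 28d birds and 12.1 and 19.1% in adults. In the same order of ages the liver-enriched list took 17.0 to 21.3, 6.02 to 6.68, 18.2 to 26.4 and 16.6 to 19.2%. Both summed shares were lowest in the 14d birds. By name, 4 of 8 mesenchymal names rose and 0 fell from 1d to 14d with TMM, where 58 of 345 rose and 49 fell. With the total count 1 rose and 1 fell, where 30 of all rose and 48 fell. The abundant miR-143-3p had 39764 ± 4793 CPM at 1d and 19882 ± 5483 at 14d, and miR-214-3p had 38.3 ± 10.4 and 375 ± 198 (SD, n = 3 each). The leukocyte list took 2.65 to 4.94, 1.53 to 2.24, 2.20 to 8.99 and 2.65 to 3.18%. The endothelial list took 2.98 to 5.09, 2.12 to 2.69, 1.92 to 4.09 and 2.11 to 2.27%. The muscle list took 0.101 to 0.373, 0.271 to 0.540, 0.0560 to 0.188 and 0.0341 to 0.0445%, and was lowest in the adults. The pancreas list took 0.00742 to 0.0157, 0.0469 to 0.0746, 0.00888 to 0.0380 and 0.0158 to 0.0321%, highest in the 14d birds by share. At 14d its miR-375-3p, also in the epithelium list, had a mean of 457 CPM, against 2.11 for miR-217-5p and 0.586 for miR-216a-3p. The means of miR-217-5p and miR-216a-3p were highest at 28d (28.4 ± 49.3 and 7.58 ± 13.1 CPM, SD). Neither passed over the ages (edgeR adjusted p = 0.164 and 0.160). By TMM-scaled CPM of the list, 28d replicate 3 (745) lay above the 14d birds (361 to 565). By TMM-scaled CPM the endothelial list had 18547 to 31484 in 1d birds and 30735 to 37222 in adults, although its share was lower in adults. The gut and other epithelium list had 665 to 890 and 833 to 1009 CPM. The liver-enriched and leukocyte shares overlapped between 1d and 2y, and their CPM were higher in adults. On both scales the mesenchymal and pancreas lists were higher and the muscle list lower in adults than at 1d. The part of these shifts in the members' changes was not tested.

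Between the youngest ages, neither member passed. miR-215-5p at 14d was 1.72-fold the 1d level (log2 fold change 0.78 ± 0.87 SE, edgeR adjusted p = 0.533). miR-194-5p at 14d was 6.31-fold the 1d level (2.66 ± 1.17, adjusted p = 0.117), or 3.25-fold without 14d replicate 2, the highest of its age. In this comparison 16.8% of all tested miRNAs rose (58 rose and 49 fell, or 30 and 48 with the total count as the scale). Fitted on the 6 libraries of these ages alone, miR-194-5p passed (adjusted p = 0.0486). With 1d replicate 1 as the only 1d library the log2 fold changes were 0.54 for miR-215-5p (adjusted p = 0.895) and 2.46 for miR-194-5p (adjusted p = 0.549).

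Between 14d and 28d miR-215-5p rose 9.12-fold (log2 fold change 3.19 ± 0.94 SE, edgeR adjusted p = 0.0300), in a comparison in which 15.7% of the tested miRNAs rose, so 1 of the 2 tested members was called. The call rests on all 6 libraries, since leaving out any one of these gave 7.50 to 10.1-fold and an adjusted p of 0.0563 to 0.119. With the total count alone the log2 fold change was 2.17 (adjusted p = 0.110), and 18 miRNAs rose and 98 fell in place of 54 and 43. miR-194-5p at 28d was 5.25-fold the 14d level and did not pass (2.39 ± 1.15, adjusted p = 0.139). It was 10.1-fold higher when 14d replicate 2 was left out and 3.13-fold higher when 28d replicate 3 was, and 2.35-fold with the total count as the scale.

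Whether the step from 14d to 28d was larger than the step from 1d to 14d was tested in the same fit. For miR-215-5p the steps differed by 2.41 ± 1.58 in log2 (adjusted p = 0.260), and for miR-194-5p by -0.26 ± 1.85 (adjusted p = 0.938), so neither member is shown to have risen more in one interval than in the other. This test called 31.6% of all miRNAs. When 1d was represented by replicate 1 alone, the differences were 2.64 (adjusted p = 0.382) and -0.12 (adjusted p = 1.00). The step from 28d to 2y was not shown to differ from the one before it either, with differences of -1.52 ± 1.46 for miR-215-5p (adjusted p = 0.536) and -2.68 ± 1.83 for miR-194-5p (adjusted p = 0.374), where 9.57% of all miRNAs were called.

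Between 28d and 2y neither member passed. miR-215-5p had a fitted level 3.18-fold higher at 2y (log2 fold change 1.67 ± 0.88 SE, edgeR adjusted p = 0.421), 1.07-fold without 2y replicate 1 and 1.38-fold by limma voom. miR-194-5p had a log2 fold change of -0.29 ± 1.09 (adjusted p = 0.971), whose sign turned without 28d replicate 1 or 3 or 2y replicate 2 or 3. In this comparison edgeR called 0 of 345 miRNAs (0%), with 39 at an unadjusted p under 0.05, limma voom called 0, and DESeq2 called 18.

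Against the youngest birds, both members were higher at 28d and at 2y, 2 of 2 tested, where 19.4 and 14.5% of all tested miRNAs rose. miR-215-5p rose 15.6-fold from 1d to 28d (log2 fold change 3.97 ± 0.97 SE, edgeR adjusted p = 0.0106), or 9.32-fold without 28d replicate 1, where the call ended (adjusted p = 0.0507). miR-194-5p rose 33.1-fold from 1d to 28d (5.05 ± 1.30, adjusted p = 0.0136), a call that ended without any 1d library (adjusted p 0.0580 to 0.0644) or without 28d replicate 1 (20.7-fold, adjusted p = 0.0507). It was 19.4-fold higher without 28d replicate 3. With the total count alone these log2 fold changes were 2.61 (adjusted p = 0.0689) and 3.64 (adjusted p = 0.0562). On that scale 9 of all miRNAs rose and 89 fell from 1d to 28d in place of 67 and 35, and 12 rose and 110 fell from 1d to 2y in place of 50 and 45.

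From 1d to 2y miR-215-5p rose 49.7-fold (5.64 ± 1.05, edgeR adjusted p = 0.00254). Without 2y replicate 1, its highest library, the rise was 16.9-fold and still passed (adjusted p = 0.00458). The rise was 19.3-fold with the total count as the scale (adjusted p = 0.00990) and 22.3-fold with limma voom (adjusted p = 0.0109). miR-194-5p rose 27.2-fold from 1d to 2y (4.76 ± 1.28, adjusted p = 0.0180). Its call ended without any 1d library (adjusted p 0.0660 to 0.0824) and without 2y replicate 1 (8.63-fold, adjusted p = 0.0820), with the total count alone (3.41, adjusted p = 0.0545), with limma voom (3.46, adjusted p = 0.182), and with the replicate number as a block (4.36, adjusted p = 0.0619). With 1d replicate 1 as the only 1d library, whose spread the fit then takes from the other ages, neither member passed at 28d or 2y against it, with estimates close to those from all libraries. The log2 fold changes were 3.71 (adjusted p = 0.279) and 5.39 (adjusted p = 0.138) for miR-215-5p, and 4.81 (adjusted p = 0.322) and 4.55 (adjusted p = 0.344) for miR-194-5p.

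From 14d to 2y miR-215-5p rose 29.0-fold (4.86 ± 1.01, edgeR adjusted p = 0.00646), where 13.3% of all tested miRNAs rose (46 rose and 56 fell, or 14 and 124 with the total count). It was 10.2-fold higher without 2y replicate 1 and 44.8-fold higher without 2y replicate 2, and the call was kept whichever of the 12 libraries was left out, with an adjusted p from 0.000529 to 0.0318. Scaled by the total count the rise was 14.2-fold (adjusted p = 0.0157), and by limma voom 12.5-fold (adjusted p = 0.0208). miR-194-5p was 4.31-fold the 14d level at 2y and did not pass (2.11 ± 1.14, adjusted p = 0.182). Leaving out 2y replicate 1 gave 1.38-fold, leaving out 2y replicate 2 gave 6.49-fold and leaving out 14d replicate 2 gave 8.40-fold. The fold was 2.01 with the total count, 1.99 with limma voom and 2.77 with the replicate block, none of them passing. In order of mean level, miR-215-5p thus ran 1d, 14d, 28d, 2y, and of the neighbours in this order only 14d and 28d differed in the test. miR-194-5p ran 1d, 14d, 2y, 28d, and no neighbours in this order differed.

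**Figure D2:**
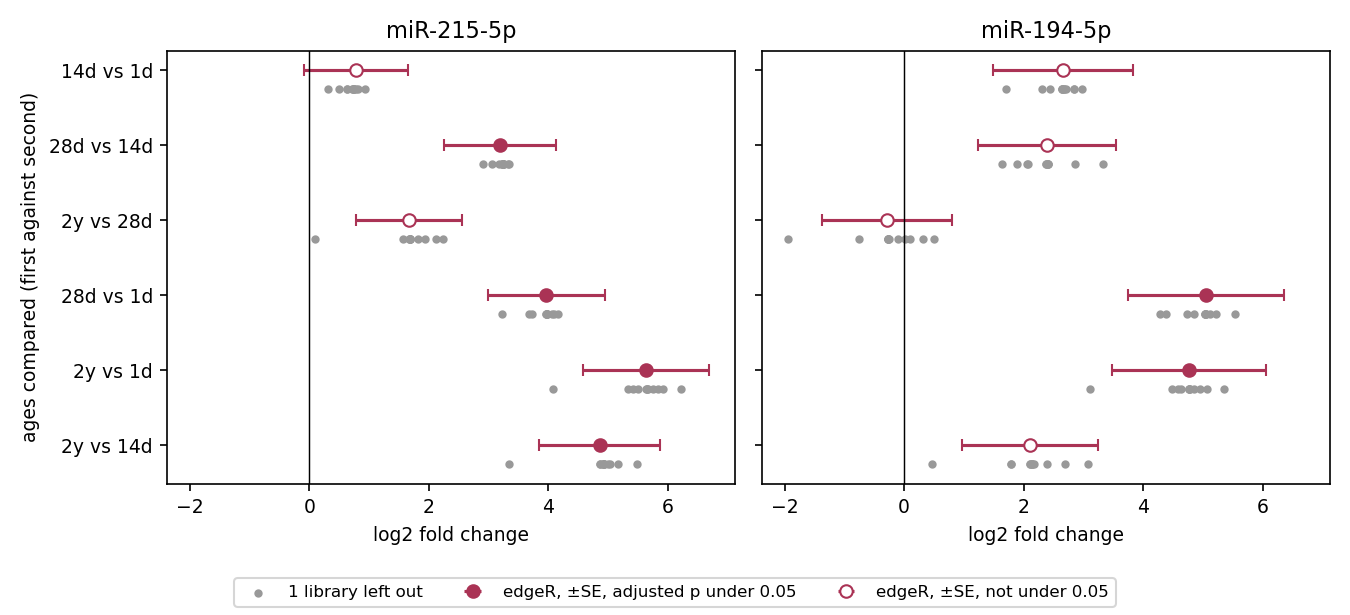
Log2 fold changes of miR-215-5p and miR-194-5p for each pair of ages. Large points are edgeR estimates with bars of 1 SE, filled where the adjusted p was under 0.05, and small grey points are the estimates with 1 of the 12 libraries left out. The comparisons of 28d and 2y with 1d are filled for both members, and the grey point farthest left at 2y against 1d is the estimate without 2y replicate 1 for both.

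The adult pigeons lay far apart from each other in both miRNAs. At 2y the highest library held 40.5 times the CPM of the lowest for miR-215-5p and 44.4 times for miR-194-5p. The SD of log2 CPM over the adults was 2.70 for miR-215-5p and 2.71 for miR-194-5p. Of the 236 tested miRNAs with a count in every adult library, a set chosen after seeing the data, these were the 2 largest, and the median was 0.32. The next was miR-34a-3p, with an SD of 2.08. Its other arm, miR-34a-5p, ranked 5 with 126, 34.3 and 485 CPM in 2y replicates 1, 2 and 3. For miR-215-5p and miR-194-5p the order of the adults was replicate 1, 3, 2, and for miR-34a-5p it was 3, 1, 2. Among all 345 tested miRNAs, those with a 0 in an adult library included, miR-194-5p ranked 14 and miR-215-5p 15.

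With CPM taken over the raw total, adult replicate 1 had 2366 CPM of miR-215-5p (95% Wilson interval 2331 to 2400.3) and replicate 2 had 59.9 (55.0 to 65.2). On that scale replicate 2 lay inside the range of the 1d pigeons, 29.3 to 70.7. By point value it was also below every 14d pigeon, 62.4 to 80.1. Its interval overlapped those of 14d replicates 1 (55.3 to 71.4) and 3 (56.8 to 68.4). For miR-194-5p adult replicate 1 had 131 CPM (123 to 140) and replicate 2 had 3.04 (2.09 to 4.42), which is below every 1d pigeon (3.13 to 6.90) by point value, with intervals that overlap. These intervals cover counting error only and not the spread between birds. The adult libraries had totals of 7613374 to 9393075 and TMM factors within 0.568 to 0.730.

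**Figure D3:**
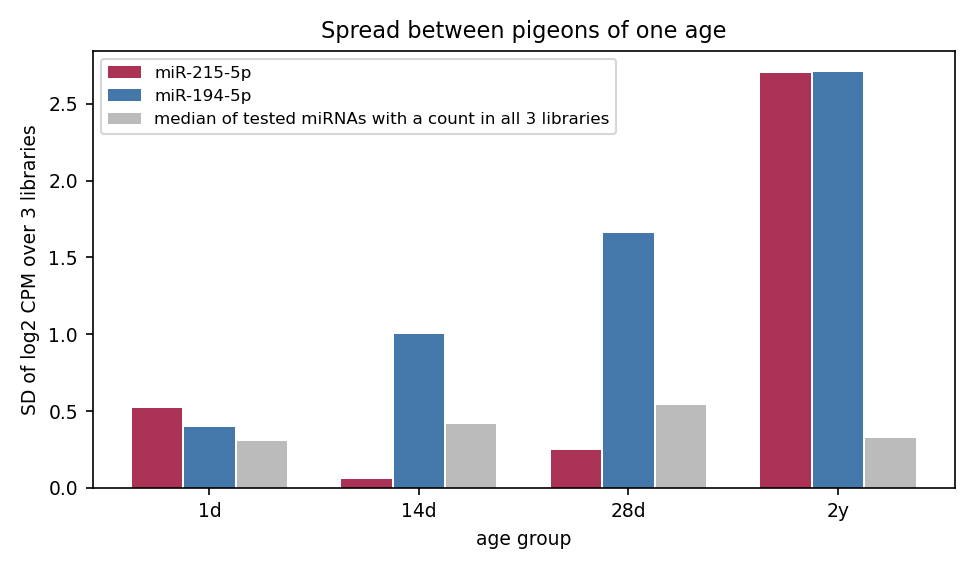
Spread between the 3 pigeons of each age, as the SD of log2 CPM. Red and blue bars are miR-215-5p and miR-194-5p, and grey bars are the median over tested miRNAs with a count in all 3 libraries of that age. At 2y both members reach about 2.7 against a median of 0.32, while miR-215-5p at 14d, at 0.05, is below the median of 0.41.

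The younger ages showed other spreads. At 14d miR-215-5p was among the tightest miRNAs, with an SD of log2 CPM of 0.05, ranked 282 of 285 miRNAs with a count in all 3 libraries from the most to the least variable. miR-194-5p at 14d had an SD of 1.00 and ranked 30. At 28d miR-215-5p had an SD of 0.25 (rank 193 of 225) and miR-194-5p one of 1.66 (rank 12). At 1d they had 0.52 and 0.40, ranks 62 and 97 of 259. These spreads and ranks are on the TMM scale. With CPM over the raw total the highest 28d library held 2.60 times the miR-215-5p of the lowest, against 1.41 times with TMM, and at 14d 1.28 against 1.07 times. The spread of miR-215-5p was thus wider over the raw total at both ages, and more so at 28d than at 14d. Ranks on that scale were not taken. For miR-194-5p at 28d the ratio was 9.37 against 9.46, and in the adults it was 39.5 against 40.5 for miR-215-5p and 43.3 against 44.4 for miR-194-5p.

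Markers of other cell types were compared over the adult libraries. The list of gut and other epithelium held 0.0592, 0.0728 and 0.0573% of counts in 2y replicates 1, 2 and 3. By share it was highest in replicate 2, where both members were lowest. By TMM-scaled CPM this list had 833, 997 and 1009 in the same order, and was highest in replicate 3. Of its 12 names miR-205a-3p was at 0 in all adults, miR-205b-5p in replicates 1 and 2, and miR-429-5p in replicate 2. The pancreas list (miR-375, miR-216 and miR-217) held 0.0196, 0.0321 and 0.0158% (275, 440 and 279 CPM), highest in replicate 2 on both scales. It had 1 or 2 of 7 names at 0: miR-216a-5p in replicates 1 and 2, miR-217-3p in replicate 1 and miR-216a-3p in replicate 3. miR-375-3p, with 233, 394 and 256 CPM in replicates 1, 2 and 3, is in both of these lists, so their orders are not independent. The list linked to p53, which holds miR-34a, had 0.688, 0.741 and 0.638% in replicates 1, 2 and 3, with 2 to 4 of 23 names at 0. The leukocyte list held 2.65 to 3.18%, the endothelial list 2.11 to 2.27% and the liver-enriched list 16.6 to 19.2% in the adults, with none of their names at 0. The mesenchymal list held 12.1, 19.1 and 15.3% in replicates 1, 2 and 3, also with none of its names at 0. By share this list was lowest in replicate 1 and highest in replicate 2, the reverse of the order of both members. By TMM-scaled CPM it had 170281, 261233 and 268826, and was highest in replicate 3, so that order was not kept. The part of cell makeup in the result was not tested.

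Within a library the members kept to one another closely at some ages and not at others. The ratio of miR-215-5p to miR-194-5p counts is free of the scaling of libraries. At 1d it was 10.2, 10.3 and 9.36, and at 2y it was 18.0, 19.7 and 19.5. The adults, which spanned 40.5-fold in miR-215-5p, therefore differed little in the ratio. At 14d it was 4.70, 1.51 and 4.91, and at 28d it was 5.71, 20.2 and 2.57. The 2y ratios lay above all 1d ratios, and all 1d ratios lay above all 14d ratios, while the 28d ratios spanned most of the range. The 1d ratios rest on 25, 23 and 14 counts of miR-194-5p, and that of 2y replicate 2 on 27, which limits their precision. In order of age the mean log2 ratio was 3.28 ± 0.09, 1.70 ± 0.96, 2.73 ± 1.49 and 4.24 ± 0.06 (SD, n = 3 each). An exact permutation test over the 15400 partitions did not pass (p = 0.0597). It passed without 28d replicate 2 (exact p = 0.00357) or 28d replicate 3 (exact p = 0.0126), and the exact p lay between 0.00357 and 0.115 over the libraries left out. The exact p was 0.113 when 1d replicate 1 was the only 1d library, an alternative added after seeing the data.

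**Figure D4:**
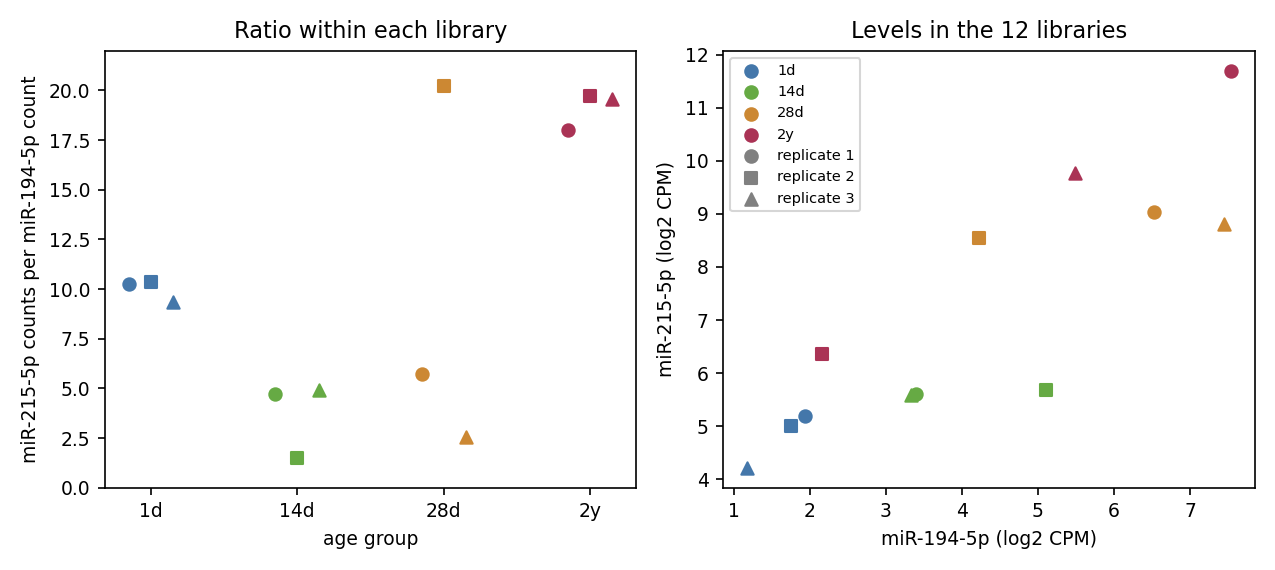
miR-215-5p against miR-194-5p. The left panel gives counts of miR-215-5p per count of miR-194-5p in each library, and the right panel gives log2 CPM of both, with colours for ages and shapes for replicates. The 2y ratios sit between 18.0 and 19.7 although the 2y points in the right panel lie far apart.

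Across the 12 libraries the log2 CPM of the 2 members rose together, with Pearson's r = 0.861 (permutation p = 0.000720) and Spearman's rho = 0.916 (permutation p = 6.0e-05), two-sided with 100000 permutations. As deviations from the age means, permuted within ages in all 1296 ways, r was 0.850 (exact permutation p = 0.0100) and rho 0.762 (exact permutation p = 0.00694). Adjusted over these 2 forms of the relation, the p-values of r were 0.00144 and 0.0100, and those of rho were 0.000120 and 0.00694. Without 28d replicate 3 and 2y replicate 1, the libraries farthest from the median of miR-194-5p, r was 0.804. Without the adults r was 0.860 over 9 libraries, and that of the deviations was 0.489, so the relation within ages rests in large part on the adults.

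The miRNAs most like each member over the 12 libraries were taken by Pearson's r of log2 CPM among pigeon names with a mean of at least 100 CPM. Likeness is a description, and the libraries share their ages and scaling. For miR-194-5p, miR-215-5p came first of 105 candidates with r = 0.86. It was followed by miR-551b-3p (0.74), miR-26-5p (0.72), miR-130c-3p (0.71) and miR-199-5p (0.70), a miRNA of mesenchymal cells. For miR-215-5p, miR-29b-3p came first of 104 with r = 0.85, followed by miR-26-5p, miR-140-5p, miR-29a-3p and miR-30a-5p, each with r = 0.82. miR-194-5p, with a mean below 100 CPM, was not among these 104, and its r of 0.861 with miR-215-5p is above that of miR-29b-3p. miR-29, whose known targets in mammals include collagen mRNAs, was also higher at the older ages, miR-29b-3p with means of 21.4 ± 3.56, 38.5 ± 7.68, 215 ± 118 and 318 ± 24.4 CPM from the youngest to the oldest age (SD, n = 3 each). In the adults, however, miR-29b-3p varied 1.16-fold and the other 4 by 1.12 to 1.65-fold, against 40.5-fold for miR-215-5p. The least like miR-215-5p were miR-26-3p (r = -0.78), miR-15c-5p (-0.77) and miR-148a-5p (-0.77). For miR-194-5p they were miR-222a-5p (-0.65), miR-106-5p (-0.65) and miR-138-5p (-0.64). With the total count as the scale, 3 of the 5 nearest remained for miR-215-5p and 3 for miR-194-5p. For miR-194-5p, miR-130c-3p and miR-199-5p moved to ranks 18 and 20, with r of 0.22 and 0.20. For miR-215-5p, miR-140-5p and miR-30a-5p moved to ranks 6 and 8, with r of 0.47 and 0.46.

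Other miRNAs of liver, of gut and of the p53 response were counted beside the members, from lists chosen with earlier results known. In the liver-enriched list, 3 of 6 tested names rose from 14d to 2y and 1 fell, where 13.3% of all tested miRNAs rose and 16.2% fell, with a median log2 fold change of 0.66 against -0.41 over all tested miRNAs. miR-101-3p, the main arm of miR-101, had 4238 ± 526, 1688 ± 309, 12387 ± 2514 and 14441 ± 1200.4 CPM in order of age (edgeR adjusted p = 4.29e-05 over the ages). Unlike miR-215-5p, it fell from 1d to 14d (log2 fold change -1.33, adjusted p = 0.00182). The minor arms miR-101-5p and miR-148a-5p fell from 1d to 2y (log2 fold changes -3.84 and -3.62, adjusted p = 7.26e-05 and 6.18e-05), opposite to both members. Over that span 2 of the 6 names rose and 2 fell, where 50 of 345 tested miRNAs rose and 45 fell. From 14d to 2y miR-148a-5p fell (-2.70, edgeR adjusted p = 0.000323) but miR-101-5p rose (1.36, edgeR adjusted p = 0.0157).

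In the gut and other epithelium list, 0 of 9 tested names rose and 4 fell from 14d to 2y, where 16.2% of all tested miRNAs fell, with a median log2 fold change of -0.86. That span starts at the list's highest age, as 5 names rose and 0 fell from 1d to 14d, where 16.8% of all rose. From 1d to 2y 2 names rose and 2 fell, where 50 of 345 tested miRNAs rose and 45 fell. The median was then 0.28 against 0.04 over all. With the total count 0 names rose and 5 fell, where 3.48% of all tested miRNAs rose and 31.9% fell. miR-31-5p, an epithelial miRNA, had 33.3 ± 7.06, 103 ± 79.6, 12.8 ± 3.69 and 15.7 ± 2.62 CPM in order of age and fell from 14d to 2y (-2.72, adjusted p = 0.00311). miR-205a-5p, a miRNA of stratified and glandular epithelium, fell over the same span (-5.32, adjusted p = 0.00890), as did miR-200b-5p, the minor arm of miR-200b (-1.71, adjusted p = 0.0292). The list linked to p53 in mammals holds miR-34, miR-107, miR-15, miR-16, miR-29 and miR-145, the last also in the mesenchymal list. From 14d to 2y 4 of its 21 tested names rose and 2 fell, against 13.3 and 16.2% of all tested miRNAs. This is near the background for the rising names, and the median was -0.31. From 1d to 2y 6 names rose and 5 fell, where 50 of 345 tested miRNAs rose and 45 fell. With the total count 3 rose and 9 fell over that span, where 3.48% of all rose and 31.9% fell. Those that rose from 14d to 2y include miR-29a-3p (log2 fold change 2.77, edgeR adjusted p = 0.000323) and miR-29b-3p (3.04, adjusted p = 0.000479). Another was miR-145-3p, an arm of a smooth muscle miRNA (3.42, adjusted p = 0.000500). Over the same span miR-215-5p rose by 4.86 in log2. With the total count as the scale, 4.06% of all tested miRNAs rose and 35.9% fell from 14d to 2y. Of the liver-enriched list 2 names then rose and 2 fell. In the epithelium list 0 rose and 6 fell, and in the p53 list 3 rose and 9 fell. The miRNAs named here kept their direction on that scale, and their calls, except miR-101-5p from 14d to 2y (0.31, edgeR adjusted p = 0.506).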

How the data were processed

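The authors deposited raw read counts for each mature miRNA name, 1 column per library, per the file headers. Per the labels' protocols, TRIzol RNA was size-selected on a gel and sequenced single-end. The submitters' processing notes name Bowtie. Its version, the build and the handling of multiply matching reads were not given in the sources used here, so close relatives of a miRNA may share or split reads.

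Libraries were grouped by title, with each pigeon as a replicate. The analysis used edgeR 4.0.16 (R 4.3.3) with filterByExpr by age (345 names kept), TMM and a robust quasi-likelihood fit of 1 mean per age over 12 libraries. A Benjamini-Hochberg adjusted p under 0.05 over all tested miRNAs was a call. SEs are the log2 fold change over the square root of F, and log2 CPM used a prior count of 2. Exact permutation tests were two-sided or on F. Those on F over 12 libraries used all 15400 partitions (smallest p 6.49e-05). With 1d replicate 1 alone there were 2800 partitions, so the smallest p was larger. The correlation within ages used all 1296 permutations within ages. Alternatives were other scalings and filters, DESeq2 1.42.0, limma 3.58.1 (voom), a replicate block, only the ages compared, 1d replicate 1 alone and each library left out. Named miRNAs are the members and the 5 most and 3 least like each. Also named are the 3 of smallest adjusted p over the ages in each of the liver, epithelium, p53, mesenchymal and pancreas lists. Those named as adult-variable were chosen after seeing values. Members and lists were chosen with earlier results of these data known. The edgeR fit was also run on simulated counts that gave all libraries the same base composition. That run does not bear on calls that depend on TMM.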

Additional observations from a re-analysis of the deposited data

How the results depend on the processing

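With 1 choice changed at a time, the rise of miR-215-5p from 14d to 2y and its age effect kept their call in every alternative run. Scaling by the total count moved the median over all tested miRNAs from -0.28 to -1.29 in log2 between 14d and 28d. It ended the calls of miR-215-5p at 28d against 14d (2.17) and 1d (2.61), and of miR-194-5p at 28d (3.64) and 2y (3.41) against 1d and over the ages (adjusted p = 0.119). Without a filter the same calls ended, at 3.25 and 3.55 for miR-215-5p and 4.54, 4.41 and an adjusted p = 0.0861 for miR-194-5p. limma voom ended those of miR-194-5p at 28d (4.51) and 2y (3.46) against 1d and over the ages (adjusted p = 0.185). With 1d replicate 1 alone miR-215-5p lost its calls from 14d to 28d (3.18) and from 1d to 28d (3.71) or 2y (5.39), and those of miR-194-5p ended at 28d (4.81), at 2y (4.55) and over the ages (adjusted p = 0.270), in an arm of 1 library whose spread is assumed to be that of the other ages. On the 6 libraries compared, miR-194-5p passed between 1d and 14d (2.40). Upper-quartile scaling turned the sign of miR-194-5p between 28d and 2y (0.026, not passing), and no filter that of its difference between the first steps (0.066, not passing). The causes were not tested.

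The replicate numbers are not said to pair birds. Same-numbered libraries correlated in their deviations from the age means at -0.10 to 0.37, with 6 of 18 pairs over 0.1, and 10 of 36 comparisons were best with the own number. With the replicate block the calls of miR-194-5p at 2y against 1d (4.36) and over the ages (adjusted p = 0.105) ended, and no other call of a member changed. The number of miRNAs called between 1d and 14d was 70 with the block and 107 without, 48 without a filter, and 50 to 118 over the libraries left out. Without a filter the number was 56 in place of 97 from 14d to 28d, 55 in place of 102 from 1d to 28d, 51 in place of 102 from 14d to 2y and 96 in place of 156 over the ages. With 1d replicate 1 alone it was 22, 61, 35, 30 and 86 for 1d to 14d, 14d to 28d, 1d to 28d, 1d to 2y (95 with all libraries) and the ages. From 14d to 2y it was 52 to 113 over the libraries left out, and from 14d to 28d 61 to 91.

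With each library left out in turn, the log2 fold changes of miR-215-5p were 0.31 to 0.93 from 1d to 14d, 2.91 to 3.34 from 14d to 28d, 0.10 to 2.25 from 28d to 2y, 3.22 to 4.16 from 1d to 28d, 4.08 to 6.22 from 1d to 2y and 3.34 to 5.48 from 14d to 2y. Those of miR-194-5p, in the same order, were 1.70 to 2.98, 1.64 to 3.33, -1.94 to 0.49, 4.28 to 5.54, 3.11 to 5.35 and 0.46 to 3.07. The differences between steps were 2.30 to 2.74 and -3.15 to -0.79 for miR-215-5p, and -0.99 to 1.63 and -4.34 to -1.15 for miR-194-5p. Adjusted p over the ages were 0.000151 to 0.00908 for miR-215-5p and 0.00870 to 0.104 for miR-194-5p. The exact p of the share was 0.0184 to 0.379 and that of the ratio 0.00357 to 0.115. At 1d miR-194-5p rests on 14 to 25 counts per library, which limits its precision there.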
